A study of Homo sapiens with 2 samples.

Results

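The Fanconi anemia pathway repairs DNA crosslinks between strands, and 7 of its genes were examined as binding sites of the transcription factor E2F1. The genes were FANCM, FANCA, FANCG, FANCE, FANCL, FANCD2 and FANCI, chosen by name with earlier results of these data known. A gene counted as bound when a called E2F1 peak overlapped the 2 kb either side of its start site on the genome build hg19. All 7 genes had a peak there, and together their windows held 8 of the 28734 peaks in the list. Windows of the same size laid end to end along chromosomes 1 to 22, X and Y overlapped a peak in 3.93% of cases, and in 3.92% on the 7 chromosomes of these genes. That percentage covers all sequence and not start sites, and the share of other genes' start sites with a peak was not analysed here.

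The peaks came from chromatin immunoprecipitation followed by sequencing (ChIP-seq) of LNCaP-abl cells, an androgen-independent line derived from the LNCaP prostate cancer cell line. The immunoprecipitated sample was made with E2F1 antibodies from 2 suppliers, and an input sample received no antibody. Cells of both samples, at passages 61 to 64, grew in medium with 10% charcoal-stripped serum and spent 3 days without androgen before collection. There was 1 peak list, from the E2F1 sample, with no replicate and no read counts, so read depth is unknown. The input was not analysed here.

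The pathway acts when a replication fork meets a crosslink that joins the strands of DNA. FANCM is a DNA translocase that recognises the stalled fork and anchors the core complex, which contains FANCA, FANCG, FANCE and the ubiquitin ligase FANCL. The core complex attaches ubiquitin to the paired proteins FANCD2 and FANCI, and the modified pair is then held on DNA for repair. E2F1 is best known for controlling genes of S phase entry and DNA replication, and E2F proteins bind DNA through sites rich in G and C beside a run of T.

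Promoter sequences are shown first, since the peaks lay over the start sites. RefSeq sequence of the build GRCh38.p14 was at hand for 6 of the 7 genes, all but FANCI. Each stretch below runs 5′ to 3′ along transcription, from 200 bases before the RefSeq start site to 30 after it. Capitals mark an E2F-type word, which is TTNNCGC on either strand with both N standing for C or G (4 words in all). Peaks were called on hg19, so no peak edge is placed on these letters.

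FANCD2 promoter, chr3:10026237-10026466 (plus strand): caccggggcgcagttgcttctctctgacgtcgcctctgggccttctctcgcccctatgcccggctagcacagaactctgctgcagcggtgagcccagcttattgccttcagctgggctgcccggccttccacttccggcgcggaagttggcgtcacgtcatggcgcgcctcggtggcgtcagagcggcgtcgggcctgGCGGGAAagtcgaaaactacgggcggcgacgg

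FANCL promoter, chr2:58241296-58241525 (minus strand): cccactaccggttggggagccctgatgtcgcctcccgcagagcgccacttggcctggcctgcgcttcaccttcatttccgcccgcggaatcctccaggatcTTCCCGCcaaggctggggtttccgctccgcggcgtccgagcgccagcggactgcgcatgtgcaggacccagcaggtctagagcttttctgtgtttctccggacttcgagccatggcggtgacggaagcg

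FANCA promoter, chr16:89816618-89816847 (minus strand): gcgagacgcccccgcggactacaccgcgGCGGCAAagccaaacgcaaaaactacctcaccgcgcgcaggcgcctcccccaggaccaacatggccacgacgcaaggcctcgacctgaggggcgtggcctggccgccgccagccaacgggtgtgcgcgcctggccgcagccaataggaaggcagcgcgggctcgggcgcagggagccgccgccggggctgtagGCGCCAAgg

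FANCE promoter, chr6:35452138-35452367 (plus strand): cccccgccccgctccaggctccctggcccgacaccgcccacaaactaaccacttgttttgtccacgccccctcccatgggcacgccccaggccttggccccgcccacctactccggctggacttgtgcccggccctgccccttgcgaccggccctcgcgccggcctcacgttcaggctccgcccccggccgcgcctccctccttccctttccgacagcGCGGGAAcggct

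FANCG promoter, chr9:35079913-35080142 (minus strand): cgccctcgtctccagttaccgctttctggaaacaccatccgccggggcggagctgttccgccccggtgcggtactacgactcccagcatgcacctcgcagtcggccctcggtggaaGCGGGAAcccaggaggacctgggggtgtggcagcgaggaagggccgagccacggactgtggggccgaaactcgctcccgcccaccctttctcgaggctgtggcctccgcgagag

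FANCM promoter, chr14:45135730-45135959 (plus strand): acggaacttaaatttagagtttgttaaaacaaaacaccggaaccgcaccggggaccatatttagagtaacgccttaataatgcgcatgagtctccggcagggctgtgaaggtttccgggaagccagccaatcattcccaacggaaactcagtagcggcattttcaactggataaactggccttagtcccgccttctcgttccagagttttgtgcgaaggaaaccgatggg

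An E2F-type word occurred in 5 of the 6 promoters when the full table window was searched, from 250 bases before the start to 50 after. It occurred in 3 of the 6 when the 250 bases before the start were searched alone, against 10.9% of all promoters and 13.6% of those of protein-coding genes. The search of the full window found a word in 13.0% of all 35116 promoters in the table and in 16.1% of the 22198 promoters of protein-coding genes. The 4 words share letters and can overlap one another, and each promoter was counted once. A match is a description of the letters, not evidence of a binding site.

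The words differed in kind and place. Bases are counted from 1 at the first transcribed base, bases before it are negative, and there is no base 0. In FANCD2 the word was TTCCCGC on the opposite strand and spanned the start site, from base -2 to base 5. FANCL carried TTCCCGC in the direction of transcription, from base -99 to base -93. FANCG carried the same word on the opposite strand, from base -84 to base -78. In FANCE it lay after the start, from base 19 to base 25. FANCA held a pair of other words, TTGCCGC from base -172 to base -166 and TTGGCGC from base 22 to base 28, both on the opposite strand. None of the 4 words was in the FANCM window. With a further T required in front of the word, FANCD2 and FANCA still matched, or 2 of 6 promoters. This held for 3.31% of all promoters, 4.1% of those of protein-coding genes and 5.04% of protein-coding ones with over 60% G and C.

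The promoters also varied in base composition, which moves with how often such words occur. G and C made up 64.7% of the window in FANCD2, 63.0% in FANCL, 72.3% in FANCA, 73.7% in FANCE, 67.7% in FANCG and 48.0% in FANCM. The median over the 6 genes was 66.2%, against 58.7% over all promoters and 62.3% over those of protein-coding genes. Among protein-coding promoters with over 60% G and C, 22.0% held an E2F-type word. FANCM, the gene without a word, was also the lowest in G and C and the only one of the 6 without the GC box GGGCGG. That box was in 45.0% of all promoters and in 80.8% of protein-coding ones with over 60% G and C, so its presence in the other 5 genes is close to the share at like composition. FANCM had 2 copies of CCAAT, the core of the binding site of the factor NF-Y, and FANCA had 1, while 34.6% of all promoters had at least 1. The word TTTGAA, linked to genes of late cell cycle, and its variant with A in place of G were in none of the 6 promoters. They were in 24.0% of all promoters, but in 7.89% of protein-coding ones with over 60% G and C, where 5 of the 6 genes lie.

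**Figure D1:**
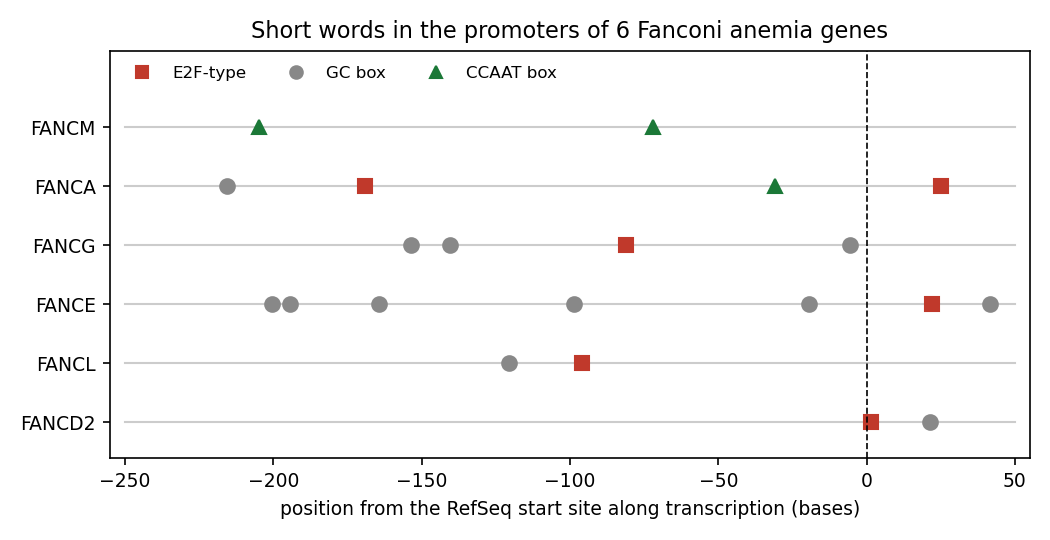
Positions of E2F-type words (squares), GC boxes (circles) and CCAAT (triangles) in the promoters of 6 genes, in bases from the RefSeq start site along transcription. FANCM is the row without a square, and FANCE has the most GC boxes, with 6.

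The peaks at the start sites were among the stronger ones in the list. The authors' score, given for each peak with its scale not stated, had a median of 215 over the 7 highest peaks at these genes and ran from 163 to 313. Over all 28734 peaks the median was 23.5, with quartiles of 10.1 and 60.7. As a percentile, the share of all peaks with a score at or below it, the 7 peaks ran from 96.26 to 99.99 with a median of 98.65. All 7 were in the top 10% by score, which by construction holds 10.0% of peaks and began at a score of 110. How the start sites of other genes rank was not analysed here, so these ranks are against peaks of every kind. The members were chosen by name and not by score, but with earlier results of these data known, so the choice was not blind. No test is given for them, since there is 1 library and genes are not replicates.

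The substrate pair of the pathway stood apart from each other. The FANCD2 start site, at position 10068113 of chromosome 3 (all peak and start-site positions are hg19), lay inside a 716 bp peak from 10067764 to 10068479. Its score of 313 was exceeded by 3 peaks in the whole list. The FANCI start site, at position 89787180 of chromosome 15, lay inside a 1063 bp peak from 89786867 to 89787929 with a score of 171, and 914 peaks scored higher. FANCD2 was the highest of the 7 genes and FANCI the second lowest.

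Genes of the core complex spread over a similar range. FANCL, which encodes the ubiquitin ligase subunit, had a score of 262 in a 685 bp peak on chromosome 2 from 58468200 to 58468884, around the start site at 58468515. Only 99 peaks of the list scored higher. FANCA, the gene most often mutated in the disease, had a score of 227 in a 920 bp peak on chromosome 16 from 89882677 to 89883596, around its start site at 89883065, with 301 peaks above it. FANCE, which joins the core complex to FANCD2, scored 215 in a 667 bp peak on chromosome 6 from 35419923 to 35420589, around the start site at 35420138, with 387 above. These 3 genes ranked directly below FANCD2.

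FANCG, a scaffold of the core complex that binds FANCA, was the lowest. Its peak on chromosome 9 from 35079463 to 35080306, around the start site at 35080013, was 844 bp wide and scored 163, with 1076 peaks above it. The anchor FANCM had a score of 187 in a 662 bp peak on chromosome 14 from 45604848 to 45605509, around the start site at 45605136, with 700 peaks above. The order by score was therefore FANCD2, FANCL, FANCA, FANCE, FANCM, FANCI and FANCG. Without a replicate, how far any of these genes differ in score beyond experimental error cannot be told, and this includes FANCD2 and FANCI. Between the ranks of the highest and the lowest gene lay 1072 other places in the list.

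**Figure D2:**
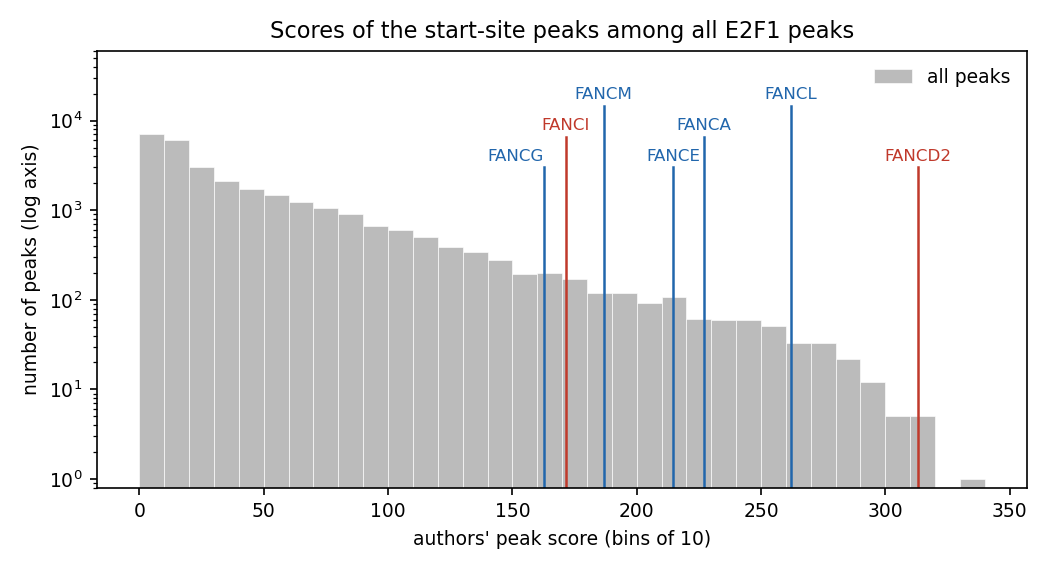
Number of E2F1 peaks (log axis) by the authors' score in bins of 10, grey for all 28734 peaks, with a vertical line at the start-site peak of each gene (red for FANCD2 and FANCI, blue for the other 5). The lines run from 163 for FANCG to 313 for FANCD2, all in the upper tail of the distribution.

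Every start site was covered by its peak, not merely near it. The peak edges lay between 215 and 749 bp from the start site. The centre of the peak was 8.5 bp from it in FANCD2, 27.0 bp in FANCL, 42.5 bp in FANCM, 71.5 bp in FANCA, 118 bp in FANCE, 128.5 bp in FANCG and 218 bp in FANCI. FANCD2 and FANCL, the genes with the highest scores, also had the most centred peaks. The list gives no summits, so the place of highest signal within a peak is not known.

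The peaks were not all skewed the same way along transcription. Direction was taken from the promoter table and was therefore at hand for 6 genes. The peak reached farther into the transcribed side in FANCE, by 451 bp against 215 bp upstream, in FANCG, by 550 bp against 293 bp, and in FANCM, by 373 bp against 288 bp. It reached farther upstream in FANCA, by 388 bp downstream against 531 bp upstream, and slightly so in FANCL, by 315 bp against 369 bp. In FANCD2 the sides were nearly equal, at 366 bp downstream and 349 bp upstream. In FANCI, the peak extended 749 bp towards higher coordinates and 313 bp towards lower ones.

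FANCM was the 1 gene with 2 peaks in its window. The additional peak was on chromosome 14 from 45603237 to 45603989, 753 bp wide, and ended 1147 bp before the FANCM start site. Its score of 69.8 was at percentile 78.8, against 97.56 for the peak over the start site. In the gene table of GRCh38.p14, FKBP3, which encodes a protein that binds the drug FK506, starts on the opposite strand upstream of FANCM, with the annotated starts 1449 bp apart. The edges of the additional peak were at -1899 and -1147 bp from the FANCM start site on hg19, a range that takes in that distance upstream. No position was moved between builds, and whether both builds use the same FANCM start was not checked. The peak is therefore assigned to neither gene.

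**Figure D3:**
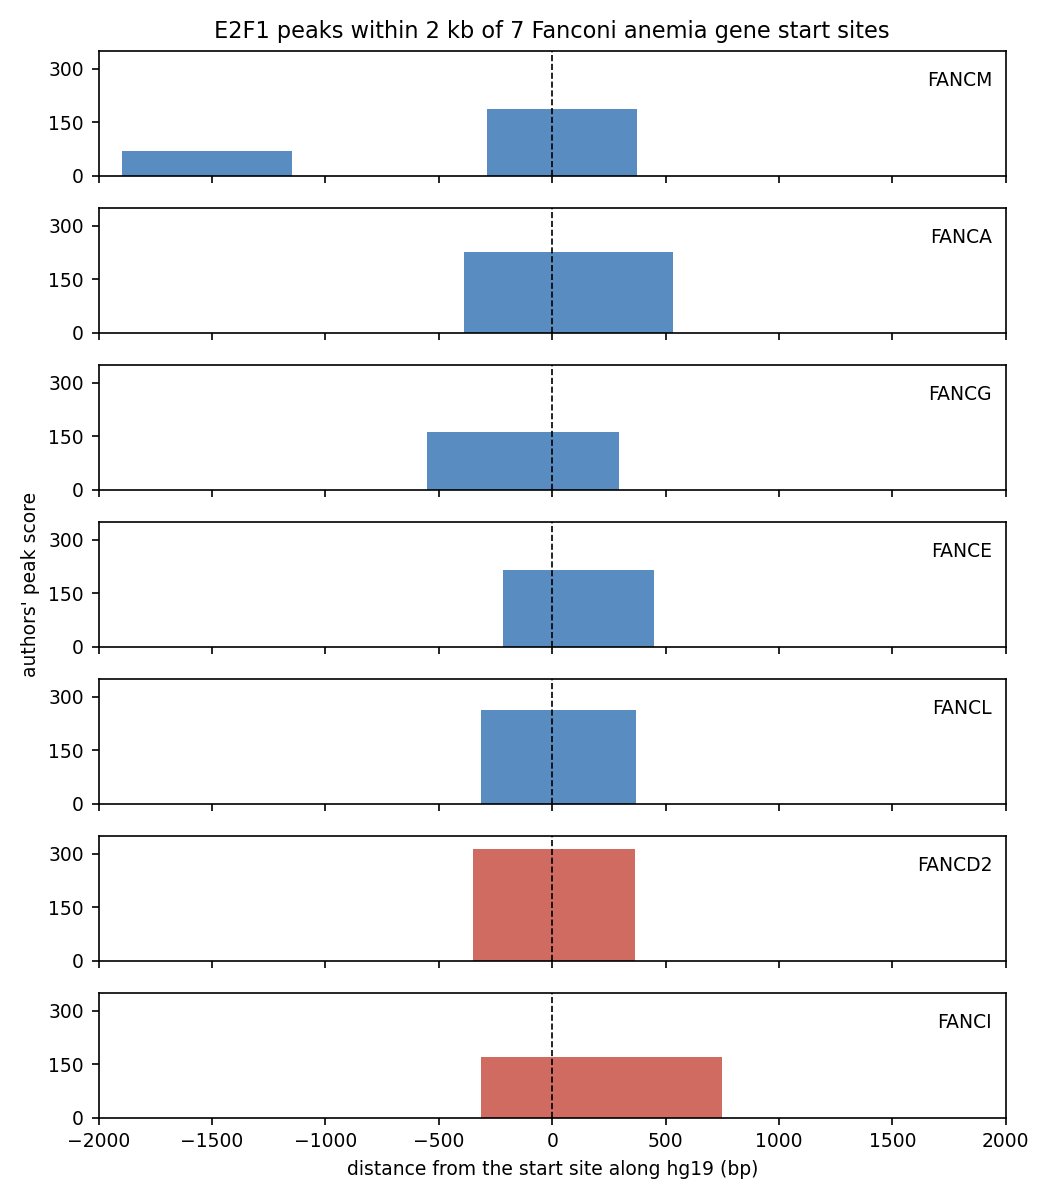
E2F1 peaks within 2 kb of the start site of each gene, drawn to scale in bp along hg19, with the height giving the authors' score and the dashed line the start site (red for FANCD2 and FANCI, blue for the others). Each start site lies inside a peak, and FANCM has a lower additional peak to its left, with a score of 69.8.

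Score and width are linked in this list, so the members were also set beside peaks of like width. The 7 peaks were 662 to 1063 bp wide with a median of 716 bp, against 418 bp over all peaks and 764 bp over the top 10% by score. Among the peaks within 20% of its own width, FANCD2 was at percentile 99.95, FANCL at 98.92, FANCE at 96.47, FANCA at 96.35 and FANCM at 94.08. FANCI was at 91.22 and FANCG at 88.10. Each group of like width held between 3393 and 6021 peaks. FANCG, at percentile 96.26 among all peaks, was the 1 gene outside the top 10% at its own width.

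**Figure D4:**
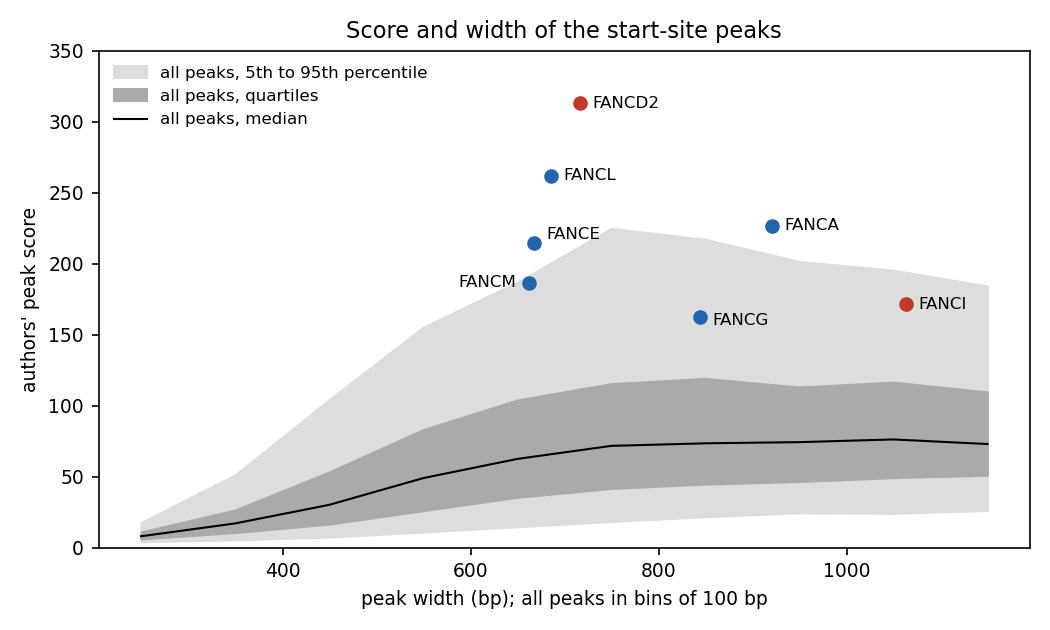
Score of the start-site peak of each gene against its width in bp (red for FANCD2 and FANCI, blue for the others), over the median, quartiles and 5th to 95th percentile of all peaks in bins of 100 bp. FANCD2, FANCL, FANCE and FANCA lie above the 95th percentile of their width bin, while FANCM, FANCG and FANCI lie at or below it.

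Within its own chromosome each peak ranked high as well. FANCD2 was second of 1723 peaks on chromosome 3 and FANCL was at rank 7 of 2020 on chromosome 2. FANCA was at rank 13 of 1184 on chromosome 16, FANCM at rank 24 of 987 on chromosome 14, FANCE at rank 28 of 1647 on chromosome 6, FANCG at rank 28 of 1074 on chromosome 9 and FANCI at rank 43 of 984 on chromosome 15.

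The surroundings of the genes differed as well. Around FANCL, no other peak was called within 100 kb, and the nearest was 186388 bp away with a score of 9.49. Only 2 other peaks lay within 500 kb of it. FANCA stood in a crowded stretch, with 38 other peaks within 500 kb, and the nearest, 11633 bp away, scored 93.7. The number of other peaks within 500 kb was 26 for FANCD2, 25 for FANCE, 23 each for FANCG and FANCI and 10 for FANCM. The median over the 7 genes was 23, against 15 over all 28725 nuclear peaks and 18 over the top 10% by score.

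At 6 of the 7 genes the start-site peak was the highest-scoring within 100 kb. This held for 31.1% of all nuclear peaks and for 76.8% of those in the top 10%, so 6 of 7 is close to the share in the top 10%. That set began at a score of 110, while the lowest of the 7 genes scored 163, so it also holds weaker peaks. Peaks of matched strength were not analysed here. The exception was FANCD2, whose neighbour 39217 bp away, on chromosome 3 from 10028246 to 10028896, scored 333. That neighbour was also the highest peak of the list. Within 500 kb the start-site peak was the highest at 4 genes, FANCA, FANCG, FANCE and FANCL, while this held for 8.61% of all nuclear peaks and 44.6% of the top 10%. FANCM was second there, below a peak of 254, and FANCI was at rank 5, with the highest of its surroundings at 278.

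Other peaks within 50 kb scored below the start-site peak of their gene, apart from that neighbour of FANCD2. FANCE had 8 of them, with scores from 4.96 to 60.1 and a median of 32.0. FANCG had 6, from 8.23 to 54.5, with a median of 25.9. FANCI had 1, with a score of 19.1, and FANCA had 2, with scores of 93.7 and 4.76. Outside the 2 kb window the closest peak was 7050 bp from FANCG and 8774 bp from FANCE, so no further peak lay just beyond the limit.

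**Figure D5:**
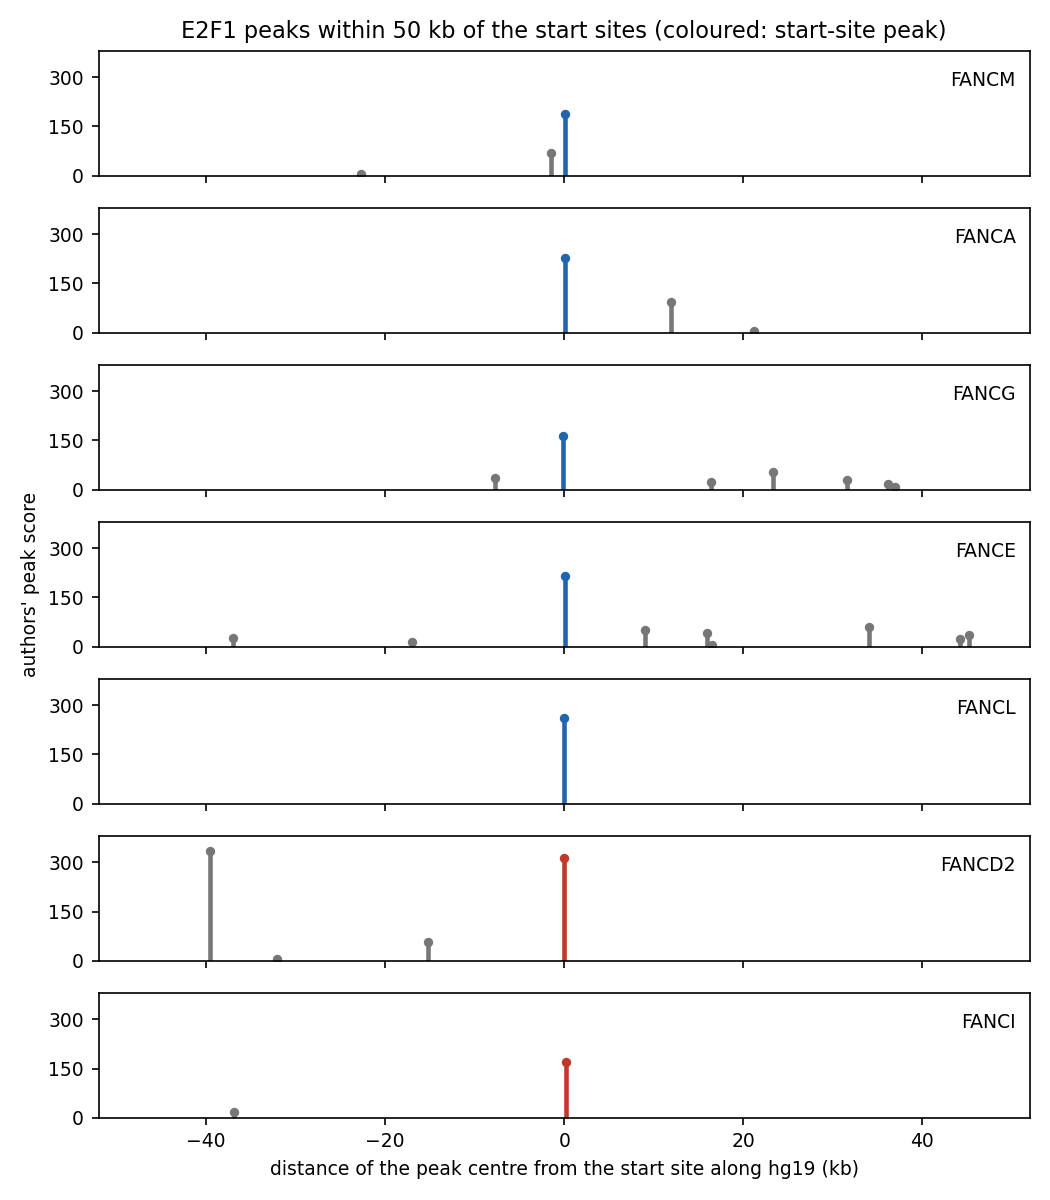
E2F1 peaks within 50 kb of each start site, as lines at the distance of the peak centre in kb along hg19 with the height giving the authors' score, coloured for the start-site peak and grey for other peaks. FANCL has no other peak in this range, and the 1 grey line that exceeds a start-site peak is 333 beside FANCD2.

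Peaks at other genes of the pathway could not be placed, since no hg19 start sites of them were at hand, but their promoters were searched for the same words. Of 22 further genes of the pathway and its partners, all were in the promoter table, some with more than 1 start, and 7 had an E2F-type word in at least 1 promoter. These were FANCC, FANCF, BRIP1, CENPS, USP1, XRCC2 and MAD2L2. BRIP1 is a DNA helicase, and USP1 removes ubiquitin from FANCD2. By promoter, 9 of 29 held a word, or 31.0%, against 13.0% of all promoters in the table, 16.1% of those of protein-coding genes and 22.0% of protein-coding ones with over 60% G and C. The 29 promoters had a median of 66.3% G and C. With a further T required in front of the word, 3 of the 22 genes still matched, FANCC, CENPS and XRCC2. By promoter, such a word was in 3.31% of all promoters and 5.04% of protein-coding ones with over 60% G and C. The other 15 genes, among them FANCB of the core complex and UBE2T, the enzyme that hands ubiquitin to FANCL, had none.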

How the data were processed

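The submitters' processing notes name the build hg19, MACS2 2.0.9, Bowtie and CASAVA 1.6.0. The sources used here do not say what role or settings these tools had, or whether peaks were called against the input. The authors deposited 1 peak list with a score per peak, whose scale is not stated, so it served for ranks within that list alone. Starts were taken as 0-based and are printed 1-based.

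The 7 genes, their start sites, the word lists and the list of further genes were chosen with earlier results of these data known. Overlap needed 1 base. Where a window held several peaks, the highest-scoring was used. All 7 symbols were in the gene table on the chromosome of the given start site. All 7 genes were named, and other genes only where they start within the window of a member or belong to the fixed list. Promoters are from RefSeq, GRCh38.p14 (250 bases before to 50 after the start), and no position was moved between builds. Distances to surrounding peaks run from the start site to the nearest edge, and for all nuclear peaks, used for comparison, from the centre. Exact Clopper-Pearson 95% intervals of the percentiles were computed but are not given here, as they cover counting error only and no experimental spread. Overlaps, percentiles and word positions were tested on simulated data. Python 3.11.15, pandas 2.3.3, numpy 2.4.6, scipy 1.17.1 and matplotlib 3.10.9 were used. No statistical test was run.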

Additional observations from a re-analysis of the deposited data

How the results depend on the processing

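All 7 genes had a peak with a window of 1 kb or of 5 kb, with the start site required inside the peak or the centre of the peak in the window, and with peaks restricted to the top 50% or the top 10% by score. None of these counts could differ, since each start site lay inside a peak of the top 10% with its centre close by. They therefore add nothing to the main count. The share of background windows with a peak was not computed for these settings. The median percentile of 98.65 was 98.36 against peaks of the same chromosome and 96.35 against peaks of like width, where the 7 genes ran from 88.10 to 99.95. It did not move when peaks with a lower score were counted, when mitochondrial peaks were left out or when the peak nearest the start site was used. These 3 settings could hardly move it. Counting lower scores leaves out only the peak itself and ties, and 28725 of the 28734 peaks are nuclear. The highest peak of each gene covers the start site and is therefore also the nearest. The count of promoters with an E2F-type word, 5 of 6, was 2 with the 8-letter words, which 3.31% of all promoters and 5.04% of protein-coding ones with over 60% G and C held. It was 3 when the 250 bases before the start were searched alone, where 10.9% and 18.9% of the same sets held a word. Fewer matches follow from longer words and a shorter window. Base composition as a background for the words was added after the data had been seen. With a single E2F1 library, no replicate could be left out. No paired analysis was possible because each group has 1 sample. Without read counts, what depth limits is not known, and whether the input has signal at these sites was not analysed here.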
